A study of Arabidopsis thaliana with 36 samples.

Results

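Transcripts of the mitochondrial genome were followed through all rows of a gene count table whose code starts with ATMG, the prefix of Arabidopsis mitochondrial loci. The table held 146 such rows among 28775, and the 77 rows with a total of 30 or more counts over all libraries were kept as members. Of the other 69 rows, 7 had no count and 62 had 1 to 29 counts, and together they held 0.475% of the mitochondrial counts. ATMG00120, ATMG00300 and ATMG01180 lay just inside the threshold with 30 counts each, and ATMG00400 (29 counts), ATMG00470 (28 counts) and ATMG00900 (28 counts) just outside it. A row with few counts could be kept through 1 group in which it was high, so the numbers over kept rows below describe those rows and do not stand for the whole mitochondrial genome.

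RNA came from leaf tissue (labelled shoot) and roots of Arabidopsis thaliana of 2 genotypes, the wild type Col-0 and the mutant opt3-2, which is impaired in OPT3, which carries iron towards phloem cells. All 4 groups had grown for 11 d on plates and 22 d in hydroponics under a cycle of 16 h light to 8 h dark, and all had then received 20 µM CdCl2 for 72 h, so genotype and tissue are compared within cadmium-treated plants only; untreated plants were not analysed here. Each group had 3 biological replicates of 3 to 4 plants, and the 3 technical columns of each were summed to give 12 libraries (n = 3 per group). The labels call the replicates biological and do not say whether they were grown separately, so p-values measure the spread between these samples.

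Plant mitochondria keep a small genome that encodes core subunits of the respiratory complexes and of ATP synthase, factors that mature cytochrome c, some ribosomal proteins, and ribosomal and transfer RNAs, while most mitochondrial proteins are encoded in the nucleus and imported. Mitochondrial transcripts are made by phage-type RNA polymerases, often from neighbouring genes together, and are then cut, edited and spliced. Unlike nuclear messenger RNA, plant mitochondrial RNA carries short poly(A) tails mainly when it is marked for degradation. The libraries were made from poly(A) RNA per the labels, so a value below is the part of the mitochondrial RNA that passed that selection, and an unequal change in tailing and in abundance cannot be told apart. In whole tissue, likewise, fewer cells of a type and less RNA per cell cannot be told apart.

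In Arabidopsis a large stretch of mitochondrial DNA also lies on chromosome 2, which bears on every value given here. Gene names were taken from notes of the RefSeq TAIR10.1 annotation on chromosome 2 genes that name their best-matching mitochondrial code. Such a note exists for 34 of the 77 members, 23 of them with a product name, and the other 43 members are given by code alone. RefSeq lists 3 ribosomal RNA genes on the mitochondrion, but the sources used here pair none of the codes with them, so ribosomal RNA could not be separated by name. The pair nad3 (ATMG00990, a complex I subunit) and rps12 (ATMG00980, a protein of the small ribosomal subunit) is shown because both were higher in opt3-2 roots and because the genes are neighbours, 45 bases apart. The lines run 5′ to 3′ in TAIR10.1, at MT:288371-288475 and chr2:3270335-3270439, both on the plus strand, with the stop codon of nad3 and the start codon of rps12 in capitals.
nad3 and rps12, mitochondrion: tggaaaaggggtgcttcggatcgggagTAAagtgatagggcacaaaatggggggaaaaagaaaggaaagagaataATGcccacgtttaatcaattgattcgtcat
nad3 and rps12, chromosome 2: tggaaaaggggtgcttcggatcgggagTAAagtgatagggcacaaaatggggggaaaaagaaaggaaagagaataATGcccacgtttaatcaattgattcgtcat
All 105 bases of this window were identical between the mitochondrion and chromosome 2.

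The member with a product name that rose in both tissues was atp1 (ATMG01190, the alpha subunit of ATP synthase), and its chromosome 2 copy, AT2G07698, differed from the mitochondrion at 1 of 2665 bases. That base, in capitals, lies outside the coding sequence; the 61 bases around it are at MT:69168-69228 on the minus strand and at chr2:3361898-3361958 on the plus strand.
atp1, mitochondrion: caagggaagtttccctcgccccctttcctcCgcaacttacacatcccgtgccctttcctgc
atp1 copy, chromosome 2: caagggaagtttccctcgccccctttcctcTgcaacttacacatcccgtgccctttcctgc
A read from most of either locus therefore has no base that tells them apart, and how reads that fit several places were counted is not given in the sources used here. The TAIR10.1 mitochondrial sequence may differ in places from the one in the TAIR10 files the authors used.

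The libraries held 21262406 to 36484138 counts. Those of opt3-2 roots (22449113 to 25141843) were all smaller than those of wild type roots (35523985 to 36484138), a difference of depth that moved with genotype. The run suffixes in the column names, whose meaning is not stated, also moved with genotype: they were 1 to 3 in every opt3-2 library, and 2 to 4 or 5 to 7 in wild type libraries. Suffixes 2 and 3 alone also leave out wild type shoot replicate 3, whose suffixes are 5 to 7. With that choice, 15 members rose in opt3-2 shoots, against 20 with all columns. Calls over all 22735 rows fell as well, from 4647 to 3092 higher in shoots. In roots this choice leaves 1 wild type library, so only an effect size is given. There the median log2 fold change of the members was 0.14, against 0.27 with all columns. The part of depth and of the suffix in the results was not tested further. The mutated gene, OPT3, was lower in opt3-2 as labelled: its level, in CPM (a library's counts scaled to a common size, with TMM factors), was 354 ± 33.8 (SD, n = 3) in wild type shoots and 21.7 ± 3.59 in opt3-2 shoots, and 42.6 ± 4.88 in wild type roots and 5.89 ± 2.70 in opt3-2 roots. All 5 leaf markers were lower in roots than in shoots and all 5 root markers higher, in both genotypes. In roots, the summed leaf markers ranged from 108 to 181 CPM in the wild type and from 140 to 173 CPM in opt3-2, with none of the 5 called between genotypes. The summed root markers ranged from 4374 to 4618 CPM in wild type roots and from 3017 to 3125 CPM in opt3-2 roots, where NRT2.1, a nitrate transporter, and PYK10, a beta-glucosidase of root endoplasmic reticulum bodies, were called lower; the other 3 were not called, among them EXPA7, an expansin of root hairs, at a log2 fold change of 0.43. In shoots, 3 of the 5 leaf markers were called higher in opt3-2, and their sum was 31263 to 38494 CPM in the wild type and 41149 to 43137 CPM in opt3-2. The part of these marker differences in the results below was not tested.

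Mitochondrial transcripts took a larger share of the counts in opt3-2 than in the wild type, above all in roots. In wild type roots, the members held 0.0341%, 0.0340% and 0.0333% of all counts, and in opt3-2 roots 0.0956%, 0.0829% and 0.107%. The opt3-2 root libraries all lay far above the wild type root libraries, by 2.81-fold in the means. In wild type shoots, the share was 0.0168%, 0.0190% and 0.0157%, and in opt3-2 shoots 0.0202%, 0.0217% and 0.0230%, a smaller difference of 1.26-fold, again without overlap. The exact two-sided permutation test gave p = 0.1 for each comparison, the smallest p that 3 libraries against 3 allow.

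**Figure D1:**
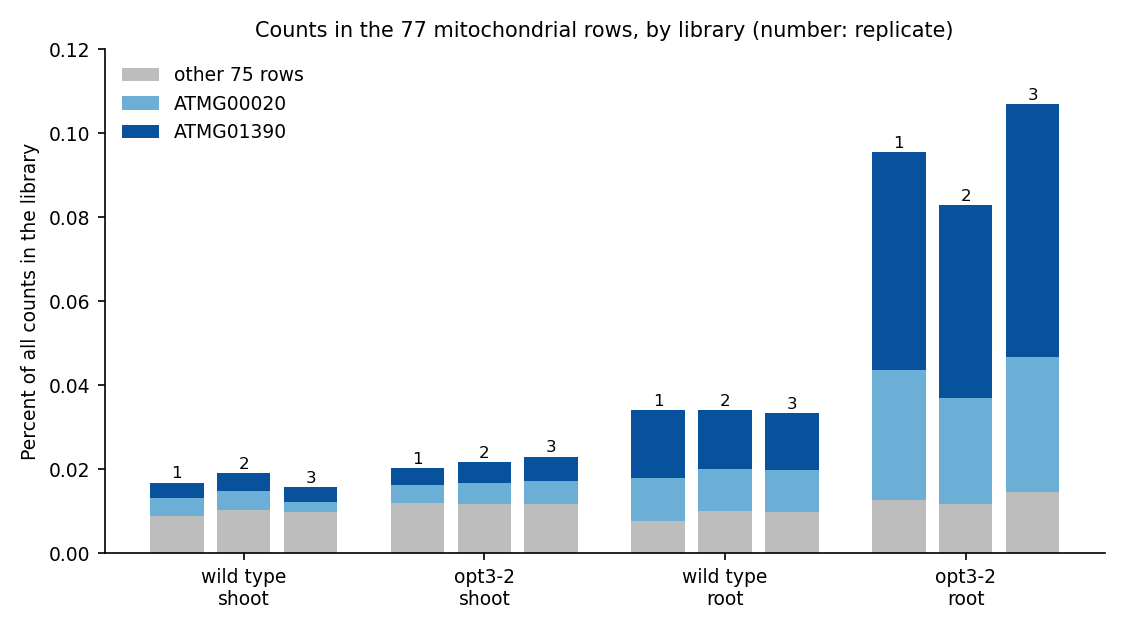
Percent of all counts of a library that fell in the 77 mitochondrial rows, as stacked bars for the 12 libraries (the number over a bar is the replicate), split into ATMG01390, ATMG00020 and the other 75 rows. The opt3-2 root bars reach 0.0829% to 0.107%, against at most 0.0341% in any other group, and most of the added height lies in ATMG01390 and ATMG00020.

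A pair of codes carried most of these counts. ATMG01390 held 44.4% and ATMG00020 28.5% of the counts of the 77 members, and neither has a name in the sources used here. Together they made up 38.2% to 47.0% of the mitochondrial counts in wild type shoots and 40.4% to 49.5% in opt3-2 shoots, but 70.3% to 77.9% in wild type roots and 85.9% to 86.7% in opt3-2 roots. Within a library, the ratio of ATMG01390 to ATMG00020, which no scaling of libraries affects, was 0.902 to 1.31 in wild type shoots, 0.988 to 1.08 in opt3-2 shoots, 1.35 to 1.55 in wild type roots and 1.68 to 1.87 in opt3-2 roots. The ratio therefore differed without overlap between the genotypes in roots and not in shoots.

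Without the pair, the other 75 members held 0.00915% ± 0.00138 of the counts in wild type roots and 0.0130% ± 0.00145 in opt3-2 roots, a log2 ratio of 0.51. In shoots their share was 0.00965% ± 0.000726 in the wild type and 0.0118% ± 0.000242 in opt3-2, a log2 ratio of 0.29. Both remained without overlap between genotypes, and the root difference was far smaller than with the pair (log2 ratio 1.49). Between the tissues of the wild type the direction turned: the root share over the shoot share had a log2 ratio of 0.98 with the pair and -0.08 without it (exact permutation p = 0.7).

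In roots, 15 of the 77 members rose in opt3-2 and none fell (edgeR's quasi-likelihood test, Benjamini-Hochberg adjusted p below 0.05 over all 22735 rows with 30 or more counts). Of all rows tested, 16.8% were called higher and 20.8% lower in this comparison, so the share of members called higher is near the background, while no member was among the called falls; at an unadjusted p below 0.05, 17 members were higher and 0 lower, and DESeq2 called 15 higher and 0 lower. The root groups were apart for 18 members higher and 2 lower, against 23.5% and 28.5% of all rows. The median log2 fold change of the members was 0.27, against -0.01 over all rows. Libraries were also scaled to their summed mitochondrial counts, which asks how a row changed relative to the other mitochondrial rows. ATMG01390 and ATMG00020 hold most of that sum. With this scaling 1 member was called higher and 42 lower, where 230 of all 22735 rows were called higher and 20012 lower.

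ATMG01390 had the most counts and the largest rise. Its level was 140, 121 and 120 CPM in wild type roots and 461, 399 and 521 CPM in opt3-2 roots, a log2 fold change of 1.86 ± 0.15 (SE; adjusted p = 3.96e-06). The groups did not overlap. ATMG00020 had 90.4, 85.6 and 88.9 CPM in wild type roots and 274, 219 and 278 CPM in opt3-2 roots (log2 fold change 1.54 ± 0.19, adjusted p = 0.000115). ATMG00030 had 13.0, 11.1 and 9.88 CPM in wild type roots and 30.4, 26.6 and 35.3 CPM in opt3-2 roots (log2 fold change 1.44 ± 0.16, adjusted p = 3.75e-05). The same 3 codes, with ATMG00830, were the 4 members called higher in roots than in shoots in both genotypes, and for the first 3 the call in opt3-2 roots held under each alternative tried other than the scaling to mitochondrial counts.

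Among members with a product name, 6 of 23 rose in opt3-2 roots, where 16.8% of all rows were called higher. atp1 (ATMG01190) went from 3.09, 4.40 and 3.87 CPM in wild type roots to 8.13, 7.32 and 10.3 CPM in opt3-2 roots, with a log2 fold change of 1.18 ± 0.15 (adjusted p = 0.000120). The lowest opt3-2 library was well above the highest wild type library. atp9 (ATMG01080), a subunit of the membrane ring of ATP synthase, had 0.701, 0.682 and 1.03 CPM in wild type roots and 1.70, 1.55 and 2.12 CPM in opt3-2 roots (log2 fold change 1.15 ± 0.23, adjusted p = 0.00220). cob (ATMG00220), the apocytochrome b of complex III, had 0.145, 0.400 and 0.528 CPM in wild type roots and 0.632, 1.14 and 1.06 CPM in opt3-2 roots (log2 fold change 1.40 ± 0.41, adjusted p = 0.0171); without opt3-2 root replicate 2 or 3 its adjusted p was 0.0673 and 0.0565. These are low levels, and cob had 201 counts in all 12 libraries together.

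The neighbours nad3 and rps12, whose junction is printed above, both rose in opt3-2 roots. rps12 had 0.483, 0.659 and 0.528 CPM in wild type roots and 1.70, 1.28 and 1.76 CPM in opt3-2 roots (log2 fold change 1.49 ± 0.23, adjusted p = 0.000379). nad3 had 0.266, 0.447 and 0.452 CPM in wild type roots and 1.11, 0.725 and 1.13 CPM in opt3-2 roots (log2 fold change 1.33 ± 0.29, adjusted p = 0.00374). In both cases the genotypes did not overlap. Neither passed in shoots, where rps12 had a log2 fold change of 0.69 ± 0.28 (adjusted p = 0.0612) and nad3 one of -0.17 ± 0.38 (adjusted p = 0.762), and the difference between the root and the shoot effect was called for nad3 (1.51 ± 0.48, adjusted p = 0.0210) and not for rps12 (0.80 ± 0.36, adjusted p = 0.0905). Without wild type shoot replicate 2 the adjusted p for nad3 was 0.0524. The sixth named member was ATMG00560, whose chromosome 2 match covers rpl2, a protein of the large ribosomal subunit. It rose by a log2 fold change of 0.41 ± 0.13 (adjusted p = 0.0251), a call lost without wild type root replicate 1 (0.0904), wild type root replicate 2 (0.0696) or opt3-2 root replicate 3 (0.119).

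Of the other rises in roots, ATMG00640, ATMG00650 and ATMG00660 are consecutive codes with no name here. ATMG00640 rose by a log2 fold change of 1.20 ± 0.25, ATMG00650 by 1.23 ± 0.30 and ATMG00660 by 0.69 ± 0.23 (adjusted p = 0.00316, 0.00688 and 0.0307). ATMG01200, ATMG00070 and ATMG01360 rose in roots and also in shoots.

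**Figure D2:**
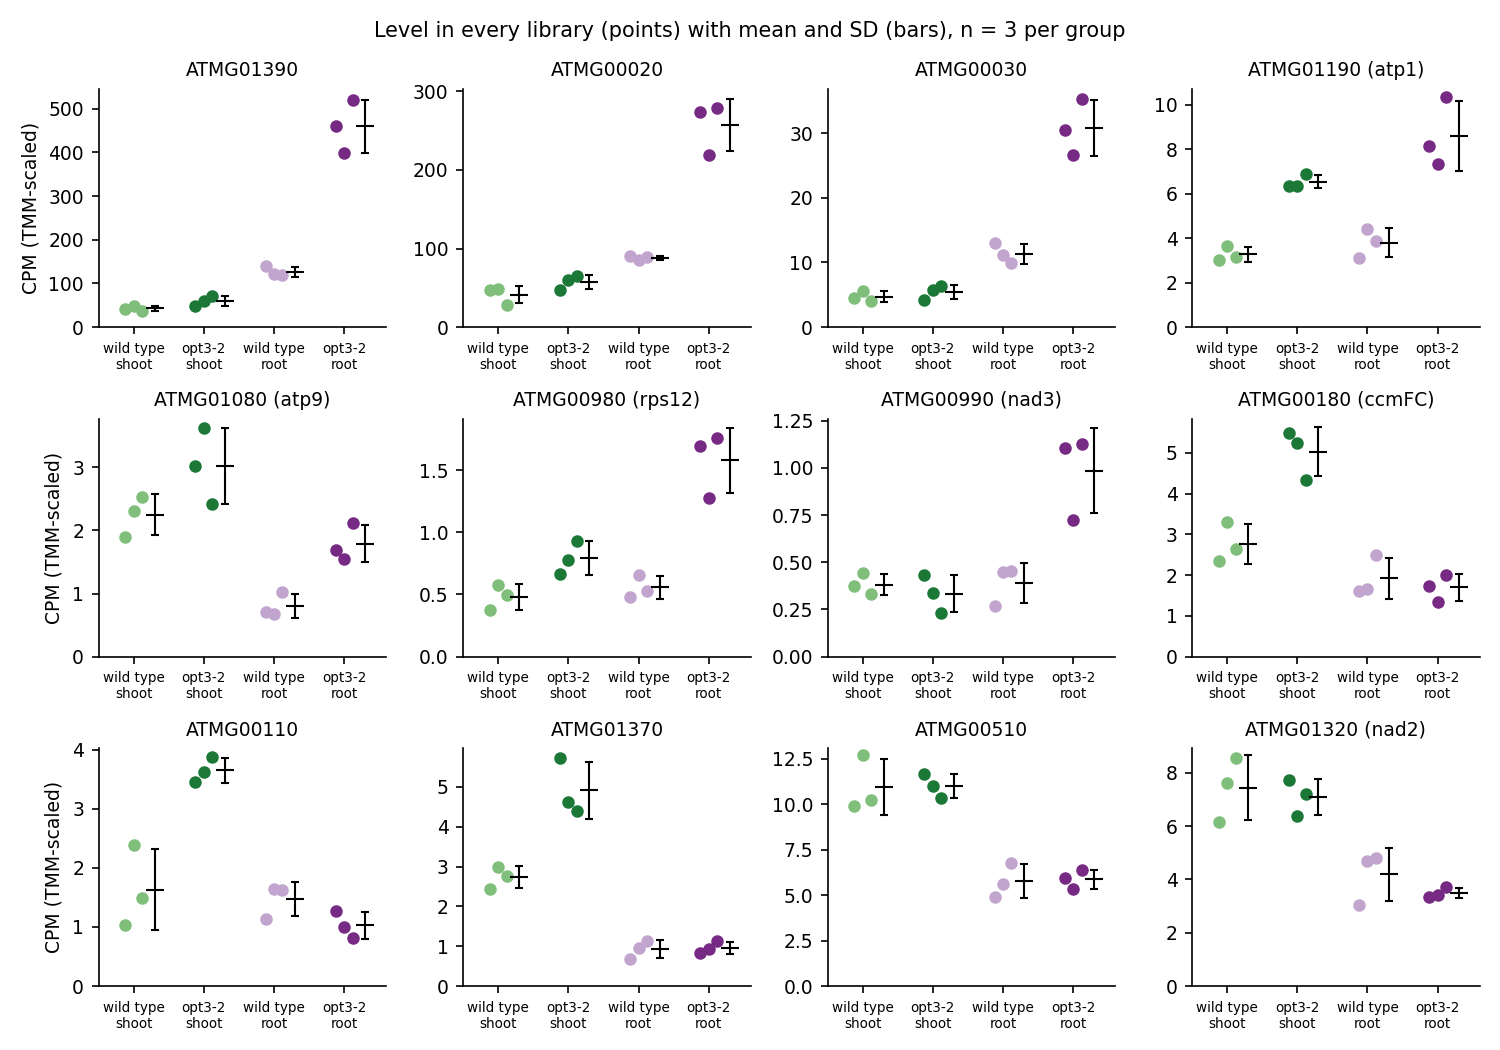
Level in CPM (TMM-scaled, linear axes from 0) of 12 members in each library, as points per group in the order of the replicates, with the mean and SD (n = 3) as bars. ATMG01390, ATMG00020, ATMG00030, atp1, atp9, rps12 and nad3 lie higher in opt3-2 roots than in wild type roots, ccmFC, ATMG00110 and ATMG01370 are higher in opt3-2 shoots and not in roots, and ATMG00510 and nad2 differ by tissue and not by genotype beyond their spread.

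Other measures also differed between the root groups, in mixed directions. In roots, 2 of the 4 nuclear rows that RefSeq types as ribosomal RNA were higher in opt3-2, AT2G01010 by a log2 fold change of 0.60 ± 0.19 (adjusted p = 0.0267) and AT3G41768 by 0.57 ± 0.19 (adjusted p = 0.0375). The other 2, AT2G01020 and AT3G41979, were lower, at -0.53 ± 0.11 (adjusted p = 0.00334) and -0.55 ± 0.12 (adjusted p = 0.00360). The share of counts in chloroplast (ATCG) rows, the other organelle, was 0.00516% to 0.00608% in wild type roots and 0.00636% to 0.00891% in opt3-2 roots. Of 96 chloroplast rows, 2 were called higher and 1 lower, where 16.8% of all rows were called higher and 20.8% lower. The part of these in the mitochondrial rise was not tested.

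In shoots, 20 of the 77 members rose in opt3-2 and none fell. Of all rows tested, 20.4% were called higher and 21.8% lower, so the share of rises is again near the background; 26 members were higher and 0 lower at an unadjusted p below 0.05, and DESeq2 called 19 higher and 0 lower. The groups were apart for 30 members higher and 1 lower, against 25.5% and 26.2% of all rows. The median log2 fold change was 0.59, against 0.00 over all rows. With 1 library fewer the number of rises ranged from 10, without wild type shoot replicate 1, to 22, and without opt3-2 shoot replicate 1 it was 13. Over all rows, 3506 were called higher without wild type shoot replicate 1 and 3766 without opt3-2 shoot replicate 1. Scaled to the summed mitochondrial counts, 6 members were called higher and 4 lower, where 658 of all 22735 rows were called higher and 10073 lower.

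atp1 had a shoot level 1.99-fold higher in opt3-2, with 3.01, 3.65 and 3.16 CPM in wild type shoots and 6.35, 6.36 and 6.86 CPM in opt3-2 shoots (log2 fold change 0.99 ± 0.17, adjusted p = 0.000528). The 3 mutant libraries lay close together and above all wild type libraries. ATMG01390 had 42.1, 48.5 and 37.3 CPM in wild type shoots and 47.8, 59.0 and 70.2 CPM in opt3-2 shoots (log2 fold change 0.47 ± 0.15, adjusted p = 0.0234). Here the groups overlapped, since opt3-2 replicate 1 lay below wild type replicate 2, and leaving out wild type replicate 1 or 3 or opt3-2 replicate 2 or 3 ended the call (adjusted p = 0.0670, 0.0758, 0.0581 and 0.0967). ATMG00020 had 46.7, 48.7 and 28.5 CPM in wild type shoots and 47.2, 59.7 and 65.1 CPM in opt3-2 shoots and was not called (log2 fold change 0.47 ± 0.19, adjusted p = 0.0652).

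Both members that could be placed in cytochrome c maturation, the pathway that attaches heme to cytochrome c, rose in opt3-2 shoots. Of all rows, 20.4% were called higher there. ATMG00900, whose chromosome 2 match covers ccmC of the same pathway, lay below the threshold with 28 counts and was not a member. It had 1, 3 and 6 counts in wild type shoots and 1, 0 and 1 in opt3-2 shoots. The 43 members without a note could not be placed, so other genes of this pathway may be among them. ccmFC (ATMG00180) had 2.35, 3.30 and 2.64 CPM in wild type shoots and 5.49, 5.24 and 4.34 CPM in opt3-2 shoots (log2 fold change 0.86 ± 0.21, adjusted p = 0.00575). ccmFN2 (ATMG00960) had 0.0826, 0.102 and 0.132 CPM in wild type shoots and 0.274, 0.223 and 0.373 CPM in opt3-2 shoots (log2 fold change 1.42 ± 0.48, adjusted p = 0.0318). Neither rose in roots, where ccmFC had a log2 fold change of -0.17 ± 0.22 and ccmFN2 one of -0.47 ± 0.47. The genotype effect differed between the tissues for both, with a root minus shoot difference of -1.03 ± 0.31 for ccmFC (adjusted p = 0.0150) and -1.89 ± 0.67 for ccmFN2 (adjusted p = 0.0355). ccmFN2 had only 59 counts in all, and leaving out any of 4 shoot libraries ended its shoot call (wild type replicates 1 and 2, adjusted p = 0.0888 and 0.0704, and opt3-2 replicates 1 and 3, 0.0633 and 0.113). Its tissue difference was lost without any of those or without wild type root replicate 1 or 2 or opt3-2 root replicate 1 or 3 (adjusted p up to 0.0849).

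Other rises in shoots with higher counts had no name. ATMG00110 had 1.03, 2.38 and 1.48 CPM in wild type shoots and 3.45, 3.63 and 3.87 CPM in opt3-2 shoots (log2 fold change 1.14 ± 0.27, adjusted p = 0.00455). ATMG01370 had 2.44, 3.00 and 2.77 CPM in wild type shoots and 5.72, 4.63 and 4.39 CPM in opt3-2 shoots (log2 fold change 0.85 ± 0.19, adjusted p = 0.00333). ATMG00580 had 5.12, 7.05 and 5.93 CPM in wild type shoots and 9.21, 7.70 and 9.38 CPM in opt3-2 shoots (log2 fold change 0.54 ± 0.15, adjusted p = 0.0137, and 0.0606 without wild type shoot replicate 1). In all 3 the genotypes were apart. rpl5 (ATMG00210), a protein of the large ribosomal subunit, rose by a log2 fold change of 1.23 ± 0.41 (adjusted p = 0.0294), and ATMG01090, whose note names ATP synthase subunit 9, by 0.75 ± 0.27 (adjusted p = 0.0387). The ATMG01090 call ended without wild type shoot replicate 1 or 2 (0.0545 and 0.123), opt3-2 shoot replicate 1 or 2 (0.0995 and 0.123) or opt3-2 root replicate 3 (0.0503).

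Fold changes of the least counted members were poorly fixed. ATMG00970 had 1 count in wild type shoots and 15 in opt3-2 shoots, a ratio of shares of 18.3 with a 95% counting interval from 2.82 to 772. ATMG01050 had 3 and 16 counts, a ratio of 6.52 with an interval from 1.87 to 34.9. These exact binomial intervals cover counting error only. Both were called in shoots, ATMG00970 no longer without wild type shoot replicate 1 or 3 or opt3-2 shoot replicate 1 (adjusted p = 0.0581, 0.0641 and 0.0589). Of the 31 members with 30 to 99 counts 5 were called higher in shoots and 0 in roots, against 15 and 15 of the 46 members with 100 or more counts.

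The 5 members called in both tissues were ATMG01390, ATMG01190, ATMG01360, ATMG01200 and ATMG00070, which is 25% of the shoot calls and 33.3% of the root calls. The genotype comparisons in the tissues share no libraries. Of all rows, 20.4% were called higher in shoots and 16.8% in roots. The share of all rows called higher in both tissues was not computed, so the overlap has no background to be set against. With the counts of code and copy summed, described further on, 5 pairs (atp1, atp6, atp9, cob and rps12) were called in both. ATMG01200 rose by a log2 fold change of 0.95 ± 0.26 in shoots and 1.05 ± 0.24 in roots, ATMG00070 by 0.76 ± 0.25 and 0.99 ± 0.23, and ATMG01360 by 0.65 ± 0.20 and 0.56 ± 0.20. The ATMG01360 calls were the least firm, with an adjusted p of 0.0468 in roots that held only without wild type shoot replicate 1 or 2, wild type root replicate 3 or opt3-2 root replicate 2 and otherwise reached up to 0.149, and one of 0.0211 in shoots that became 0.0842 without wild type shoot replicate 1 and 0.0824 without opt3-2 shoot replicate 2. For these 4 members other than ATMG01390 the difference between tissues was not called (adjusted p = 0.525 for ATMG01190, 0.848 for ATMG01200, 0.619 for ATMG00070 and 0.850 for ATMG01360).

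**Figure D3:**
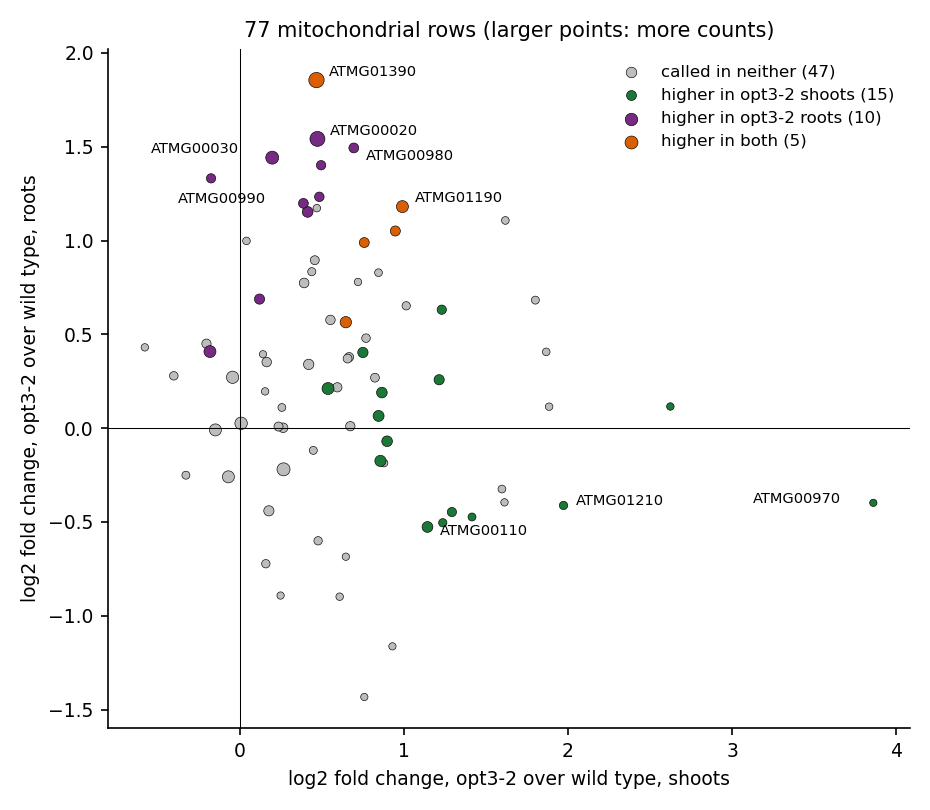
Log2 fold change of opt3-2 over wild type in shoots (horizontal) and roots (vertical) for the 77 mitochondrial rows, larger points having more counts, coloured by where the row was called higher. The 10 rows called in roots alone lie at shoot values from -0.18 to 0.69, and ATMG01390, ATMG00020 and ATMG00030, which have the most counts among the root calls, lie at 1.86, 1.54 and 1.44 on the vertical axis.

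The genotype effect itself differed between tissues for 15 members, with 5 higher and 10 lower in roots than in shoots; of all rows tested, 23.2% were called higher and 23.1% lower. The 5 higher ones were ATMG01390 (root minus shoot effect 1.39 ± 0.21, adjusted p = 0.000228), ATMG00030 (1.24 ± 0.24, adjusted p = 0.00136), ATMG00020 (1.07 ± 0.26, adjusted p = 0.00650), nad3 and ATMG00560 (0.59 ± 0.18, adjusted p = 0.0199, and 0.0557 without opt3-2 root replicate 3). Of the 12 members with over 1000 counts, they include 4. The 10 lower ones rose in shoots and had estimates near or below 0 in roots, except ATMG00090 (-0.49 ± 0.18, adjusted p = 0.0466), which was called in neither tissue and whose difference was lost without any library other than wild type root replicate 1 or opt3-2 root replicate 1 (adjusted p up to 0.117). They include ATMG00110 (-1.67 ± 0.39, adjusted p = 0.00415) and ATMG01210 (-2.38 ± 0.66, adjusted p = 0.0106). ATMG01210 had 0.165, 0.0681 and 0.198 CPM in wild type shoots, 0.588, 0.781 and 0.373 CPM in opt3-2 shoots, and at most 0.201 CPM in any root library. The number of lower calls ranged from 4, without wild type root replicate 2 or 3, to 11.

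Between tissues of the wild type, 4 members were higher and 21 lower in roots than in shoots, where 38.8% of all rows tested were called higher and 38.0% lower. The root and shoot libraries did not overlap for 4 members that were higher and 26 that were lower, against 40.8% and 39.8% of all rows. In opt3-2, 8 were higher and 32 lower, where 42.8% of all rows were called higher and 40.1% lower, and the libraries were apart for 8 higher and 36 lower members, against 43.9% and 40.9% of all rows. This contrast depended on scaling: with library sizes alone, which raised the median of all rows by 0.35 in the wild type and 0.43 in opt3-2 on the log2 scale, 8 members were higher and 9 lower in the wild type and 11 higher and 16 lower in opt3-2. Of all 22735 rows, 12430 were then called higher and 6066 lower in the wild type, and 12696 and 6306 in opt3-2. Scaled to the mitochondrial counts, the numbers were 4 and 37 in the wild type and 3 and 64 in opt3-2. Over all rows they were then 4923 and 13747 in the wild type and 3713 and 16551 in opt3-2. Without wild type root replicate 1, 13 members were lower in wild type roots, where 8324 of all 22735 rows were called lower.

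Of the 12 members with over 1000 counts, 8 were lower in wild type roots than in wild type shoots. ATMG00510 had 9.91, 12.7 and 10.2 CPM in wild type shoots and 4.93, 5.62 and 6.76 CPM in wild type roots (root over shoot log2 fold change -0.93 ± 0.13, adjusted p = 3.66e-05). Its genotype effects were 0.01 ± 0.13 in shoots and 0.03 ± 0.14 in roots, and the genotypes overlapped in both tissues. nad2 (ATMG01320), a complex I subunit, had 6.15, 7.63 and 8.54 CPM in wild type shoots and 3.04, 4.71 and 4.80 CPM in wild type roots (log2 fold change -0.83 ± 0.17, adjusted p = 0.000733). Its opt3-2 values lay within the same ranges, 6.36 to 7.72 CPM in shoots and 3.36 to 3.70 CPM in roots. ATMG00160, ATMG00060 and ATMG00090 fell from shoots to roots by 0.72, 0.73 and 0.51 on the log2 scale in the wild type. With library sizes alone the wild type values were -0.58 for ATMG00510, -0.49 for nad2 and -0.37 for ATMG00160, all still called, and -0.38 for ATMG00060 (adjusted p = 0.0528) and -0.16 for ATMG00090 (adjusted p = 0.254), both no longer called.

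ATMG01390, ATMG00020 and ATMG00030 went the other way. ATMG01390 was higher in roots by a log2 fold change of 1.58 ± 0.15 in the wild type and 2.96 ± 0.15 in opt3-2, ATMG00020 by 1.10 ± 0.19 and 2.17 ± 0.19, and ATMG00030 by 1.26 ± 0.17 and 2.50 ± 0.17. atp9 had a root over shoot log2 fold change of -1.49 ± 0.23 in the wild type and -0.75 ± 0.22 in opt3-2, and with library sizes alone the latter was -0.32 (adjusted p = 0.192). atp1 did not pass the test in the wild type (0.21 ± 0.16, adjusted p = 0.262) and was higher in opt3-2 roots (0.40 ± 0.16, adjusted p = 0.0309). That call was lost without opt3-2 shoot replicate 1 or 2 or opt3-2 root replicate 3 (adjusted p = 0.0777, 0.0746 and 0.167), and with library sizes alone the value was 0.83. These are differences of 1 row between libraries; levels of different rows are not compared, since lengths of the ATMG codes were not used here.

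By product, 5 members have notes that name ATP synthase subunits: atp1, atp9, atp8, atp6 and ATMG01090. For ATMG01090, the best match of its chromosome 2 copy on the mitochondrion overlapped no coding gene. The 43 members without a note could not be placed, so the groups given here may be incomplete. In roots atp1 and atp9 rose, and the groups were apart for these and for atp8 and atp6, where 23.5% of all rows were apart in that direction. atp8 (ATMG00480) had a root log2 fold change of 0.77 ± 0.31 (adjusted p = 0.0695) and atp6 (ATMG00410) one of 0.58 ± 0.34 (adjusted p = 0.200). ATMG01090 had one of 0.40 ± 0.33 (adjusted p = 0.361), with overlapping groups. In shoots atp1 and ATMG01090 rose. Of the 3 members placed in complex I, nad3 rose in roots, nad2 had a log2 fold change of -0.26 ± 0.18 and nad1 (ATMG01275, 48 counts) one of 0.83 ± 0.59. Of 2 members with notes that name cytochrome c oxidase (complex IV), neither passed in roots: cox3 (ATMG00730) had 0.90 ± 0.38 (adjusted p = 0.0836) and ATMG01280, noted as like subunit II, had 0.01 ± 0.38 (adjusted p = 0.994). The note on ATMG00590 names cytochrome b, but its sequence matches the mitochondrion at nad4, and was put in no group. Of the 5 members placed with ribosomal proteins, rps12 and the rpl2 code rose in roots and rpl5 in shoots, and rps4 (ATMG00290) and rps7 (ATMG01270) passed in neither tissue.

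The chromosome 2 copies showed what happened to the other reads of the same sequences. For 30 members the paired copy was also kept, with an identity between copy and mitochondrion of 99.7% to 100%, and 14 pairs were identical. A code held 13.1% to 96.6% of the counts of its pair, with a median of 45.9%, and 18 of the 30 codes held 40% to 60%. In opt3-2 shoots 10 of the 30 copies rose and none fell, where 20.4% of all rows were called higher and 21.8% lower. In roots 8 copies rose and none fell, where 16.8% of all rows were called higher and 20.8% lower. Code and copy were both called in 4 pairs in shoots and 5 in roots. In roots these 5 were atp1, atp9, cob, rps12 and the rpl2 code, and the copy of atp1 rose by a log2 fold change of 1.09 ± 0.16 (adjusted p = 0.000314), close to its code.

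Adding the copy's counts to its code before the test, an alternative chosen after seeing the data, gave 9 of the 30 pairs higher in opt3-2 roots and 12 in shoots, and none lower. Of all 22698 rows tested that way, 3808 were called higher and 4724 lower in roots, and 4656 higher and 4952 lower in shoots. The pair sum was called in roots for atp1, atp6 (0.72 ± 0.25, adjusted p = 0.0371), atp8 (0.98 ± 0.23, adjusted p = 0.00566) and atp9, but not for ATMG01090 (0.50 ± 0.27, adjusted p = 0.167), and for cob, cox3 (1.26 ± 0.34, adjusted p = 0.0131), nad3, rps12 and the rpl2 code. In shoots the sums for ccmFN2 (0.88 ± 0.44, adjusted p = 0.127), ATMG00970 (adjusted p = 0.0540) and ATMG01050 (adjusted p = 0.0729) did not pass, and those for cob, atp6, atp9 and rps12 did.

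**Figure D4:**
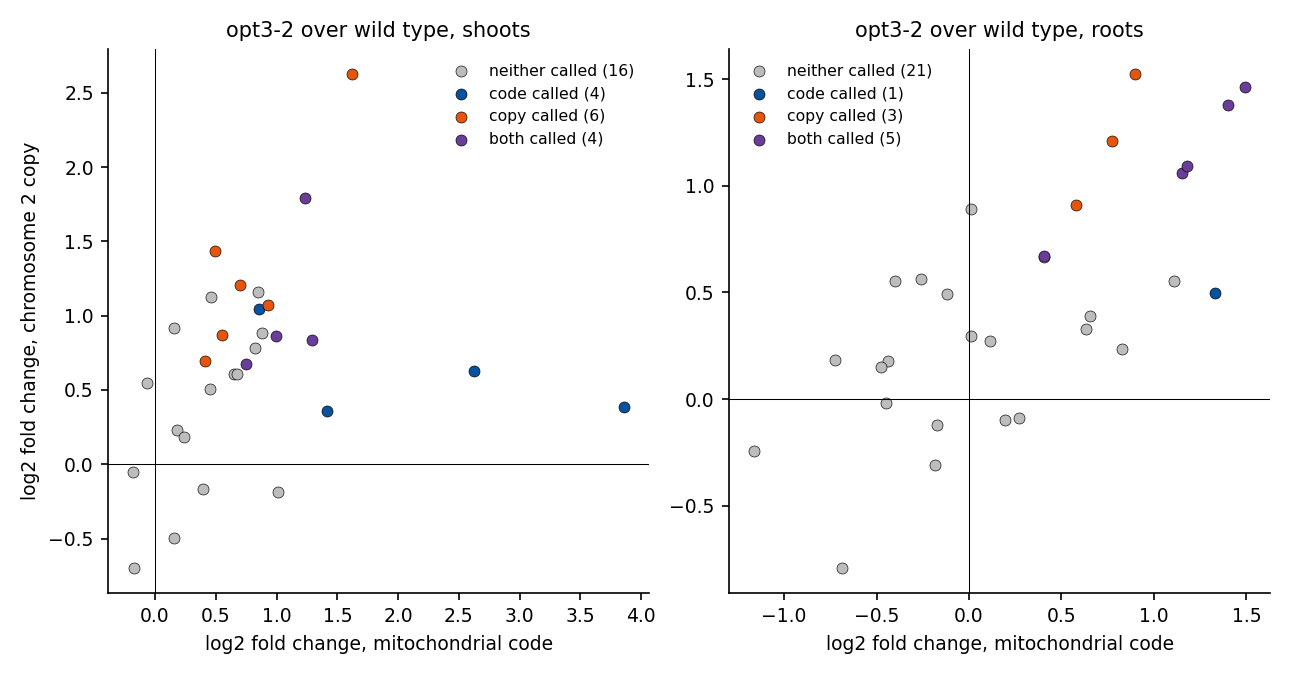
Log2 fold change of opt3-2 over wild type for 30 mitochondrial codes (horizontal) and their chromosome 2 copies (vertical), in shoots and in roots, coloured by which of the pair was called. In roots the 5 pairs with both called lie in the upper right, with atp1, atp9, cob and rps12 above 1 on both axes.

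Nuclear genes for the respiratory complexes were mostly lower in opt3-2 shoots. Of 34 nuclear genes for subunits of complexes I to V and cytochrome c, 30 fell and none rose in opt3-2 shoots, with a median log2 fold change of -0.38, where 20.4% of all rows were called higher and 21.8% lower. Of the mitochondrial members whose notes name subunits of these complexes, atp1 and ATMG01090 rose in shoots, and the others named above did not pass. The match of ATMG01090 overlapped no mitochondrial coding gene, and members without a note could not be placed in a complex. The difference between the nuclear and the mitochondrial genes was not tested. ATP2-3 (AT5G08690), a beta subunit of ATP synthase, fell by 0.91 on the log2 scale (SE 0.08), CYTC-1 (AT1G22840), a cytochrome c, fell by 0.80 (SE 0.08), and RISP1 (AT5G13430), the iron-sulfur protein of complex III, fell by 0.67 (SE 0.06). In roots 8 of the 34 rose and 1 fell, with a median of 0.15, where 16.8% of all rows were called higher and 20.8% lower. SDH2-1 (AT3G27380), the iron-sulfur subunit of complex II, rose by 0.37 ± 0.07 (adjusted p = 0.00126) and CYTC-1 by 0.35 ± 0.08 (adjusted p = 0.00343), and GAMMA CAL2 (AT3G48680), a carbonic anhydrase-like subunit of complex I, fell by 0.37 on the log2 scale. The genotype effect was called higher in roots than in shoots for 32 of the 34, against 23.2% of all rows.

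Of 19 nuclear genes tested that handle mitochondrial RNA, 1 rose and 6 fell in opt3-2 shoots (20.4% and 21.8% of all rows), and 4 rose and 2 fell in roots (16.8% and 20.8% of all rows). PMH1 (AT3G22310), a DEAD-box helicase of mitochondria, went from -1.08 ± 0.10 in shoots to 0.56 ± 0.09 in roots (adjusted p = 7.00e-06 and 0.000368). The mitochondrial polynucleotide phosphorylase (AT5G14580), which degrades RNA including polyadenylated transcripts, had -1.05 ± 0.12 in shoots and 0.45 ± 0.10 in roots (adjusted p = 0.00510 in roots). RPOTm (AT1G68990), a mitochondrial RNA polymerase, fell in shoots by 0.45 on the log2 scale and did not pass in roots (-0.05, adjusted p = 0.565). Of 7 genes that maintain mitochondrial DNA, 2 fell in shoots, and in roots TWINKLE (AT1G30680), a DNA helicase and primase, rose by 0.29 ± 0.09 and POLIA (AT1G50840), an organelle DNA polymerase, fell by 0.33.

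**Figure D5:**
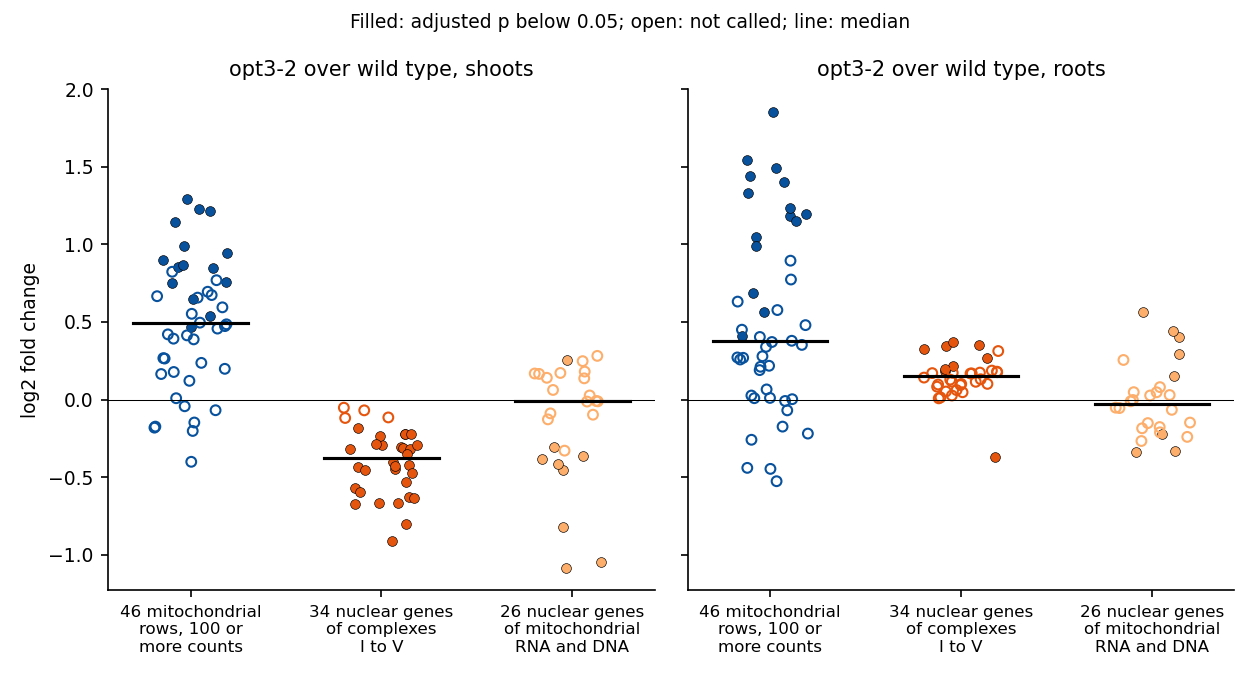
Log2 fold change of opt3-2 over wild type in shoots (left) and roots (right) for 46 mitochondrial rows with 100 or more counts, 34 nuclear genes of complexes I to V with cytochrome c, and 26 nuclear genes for mitochondrial RNA and DNA. Filled points were called, open ones were not, and lines are medians; in shoots the mitochondrial median is 0.49 and the median of the nuclear subunits is -0.38, and in roots they are 0.37 and 0.15.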

How the data were processed

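Poly(A) RNA libraries were made with TruSeq chemistry per the labels. The authors deposited whole-number counts per gene in 36 columns; the submitters' processing notes name TopHat2, edgeR and TAIR10, without versions or settings, and no source used here gives the counting tool, strand setting or treatment of reads with several matches. The 3 technical columns of each library were summed. edgeR 4.0.16 (R 4.3.3) was run with TMM scaling on all 12 libraries and all 22735 rows with a total of 30 or more counts, using the robust quasi-likelihood test for 5 comparisons, two-sided, with Benjamini-Hochberg adjustment over all rows and a threshold of 0.05. Standard errors are the log2 fold change divided by the square root of F. Summed shares were compared with exact permutation tests (scipy 1.17.1). The scripts were tested on simulated data. DESeq2 1.42.0, limma 3.58.1 (voom) and other scalings, filters and subsets were alternatives, and codes were matched to chromosome 2 with blastn 2.17.0 and RefSeq notes. The members and lists were chosen with earlier results of these data known. Named genes were the 15 members with the highest mean CPM, up to 5 called rises and 5 called falls without overlap in each comparison (for the difference between tissues, the 5 smallest p), the 3 members on either side of the threshold, and the 3 smallest p of each nuclear list per tissue; other genes, among them rpl5, ATMG01200, ATMG00070, ATMG00640 to ATMG00660, RPOTm and the remaining respiratory and ribosomal genes, were chosen after their values were seen, and those among them that are not in the closing section were not recomputed library by library.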

Additional observations from a re-analysis of the deposited data

Results flagged for a closer look

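The effect of genotype differed between roots and shoots, by the test of that difference, for 15 of the 77 mitochondrial rows. The root minus shoot difference in log2 fold change was positive for ATMG01390 (1.39), ATMG00030 (1.24), ATMG00020 (1.07), nad3 (ATMG00990, 1.51) and ATMG00560 (0.59). It was negative for ATMG00110 (-1.67), ATMG01210 (-2.38), ccmFC (ATMG00180, -1.03), ATMG00370 (-1.74), ATMG00140 (-1.74), ccmFN2 (ATMG00960, -1.89), ATMG00690 (-0.97), ATMG00970 (-4.26), ATMG00090 (-0.49) and ATMG01370 (-0.78). The value for ATMG00970 rests on 1 count in wild type shoots.
The calls for ATMG01390, ATMG00030, ATMG00020, ATMG00110, ATMG01210 and ccmFC held without any 1 of the 12 libraries. ATMG00990 and ATMG00560 each lost the call without 1 library and ATMG00370 without opt3-2 shoot replicate 1 or wild type root replicate 3 (adjusted p = 0.0597 and 0.0504). ATMG00140 lost it without any of 6 libraries, ATMG00690 of 7, ATMG01370 of 8, ccmFN2 of 8, ATMG00970 of 9 and ATMG00090 of 10. In all of these the direction stayed.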

How the results depend on the processing

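Numbers of members called are given here as higher and lower. Scaled to the summed mitochondrial counts they were 6 and 4 in shoots, 1 and 42 in roots, 0 and 34 for the difference between tissues, 4 and 37 for roots over shoots in the wild type and 3 and 64 in opt3-2. Over all 22735 rows they were, in the same order, 658 and 10073, 230 and 20012, 905 and 14703, 4923 and 13747, and 3713 and 16551. Under that scaling, log2 fold changes turned in roots for ATMG00030 (-0.051), ATMG01190 (-0.31), ATMG00560 (-1.08), ATMG01360 (-0.92), ATMG01080 (-0.33), ATMG00220 (-0.063) and ATMG00990 (-0.16). The tissue difference turned for ATMG00020 (-0.015) and ATMG00560 (-0.48), and roots over shoots in opt3-2 for ATMG01190 (-1.31), ATMG00980 (-0.71) and ATMG00990 (-0.18). Library sizes alone gave 8 and 9 for roots over shoots in the wild type and 11 and 16 in opt3-2, where ATMG00160 turned (0.027). Over all 22735 rows this scaling gave 12430 and 6066 in the wild type and 12696 and 6306 in opt3-2. Technical replicate 1 alone gave 7 rises in shoots, 8 in roots, 4 lower tissue differences and 21 lower in opt3-2 roots, where ATMG00140 (0.46) and ATMG00960 (1.44) turned. Over all 22735 rows these numbers were 3458, 2918, 3903 and 8325. Run suffixes 2 and 3, whose meaning is not stated, left 9 libraries, with 1 for wild type roots. Calls in comparisons with that group are therefore not given. For roots over shoots in the wild type, ATMG00180 turned (0.034). The filterByExpr filter and limma-voom each gave 6 lower tissue differences, where 5249 of 21887 rows and 5092 of 22735 rows were called lower. The cause of these changes was not tested. Technical replicate 1 alone and the run suffixes also used fewer counts.

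The log2 ratio of the summed share without ATMG01390 was 1.14 in roots, 0.53 for roots over shoots in the wild type and 1.35 in opt3-2. Without ATMG01390 and ATMG00020 it was 0.51, -0.077 and 0.14. As TMM-scaled CPM the tissue values were 0.63 and 1.70.

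Leaving out 1 library at a time, the share's log2 ratio ranged from 0.27 to 0.41 in shoots, 1.40 to 1.58 in roots, 0.92 to 1.06 between tissues of the wild type and 2.04 to 2.23 in opt3-2. Calls ranged from 10 to 22 higher and 0 to 0 lower in shoots, 11 to 16 and 0 to 2 in roots, 4 to 6 and 4 to 11 for the tissue difference, 4 to 6 and 13 to 22 for roots over shoots in the wild type, and 6 to 8 and 22 to 33 in opt3-2. The lower calls in roots appeared without wild type root replicate 1 (2) and opt3-2 root replicate 3 (1).

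Deviations of same-numbered replicates from their group means had correlations from -0.367 to 0.186, with 6 of 18 over 0.1. Differently numbered root libraries reached 0.507 (wild type replicate 1 with opt3-2 replicate 2) and -0.518 (wild type replicate 3 with opt3-2 replicate 2). With 3 libraries per group, these values cannot settle whether the numbers pair the samples, and the main test used no pairing. With a replicate block the calls were 16 and 0 in shoots, 14 and 0 in roots, 5 and 6 for the tissue difference, 4 and 19 in the wild type and 8 and 30 in opt3-2. Over all 22735 rows they were, in the same order, 4405 and 4786, 3611 and 4445, 5086 and 5072, 8740 and 8548, and 9635 and 9039.

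Over 83 values of named members and 2047 alternatives, 1799 kept direction and call, 232 lost the call and 16 turned.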
